A study of Mus musculus with 8 samples.

Results

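The Hox cluster genes are the homeobox genes of HoxA, HoxB, HoxC and HoxD, which lie on mouse chromosomes 6, 11, 15 and 2. Their members were taken by gene name alone (Hox, a cluster letter and a group number) from a table of 21291 gene rows, which gave 38 genes: 11 of HoxA and 9 each of HoxB, HoxC and HoxD. Hoxb13 was not analysed here. Polyadenylated RNA had been sequenced from pairs of kidneys of E14.5 mouse embryos, 4 control and 4 mutant, each library from a kidney pair. Controls were Six2-GFPcre tg/+, Etv4+/- and Etv5fl/fl. Mutants carried the same Six2-GFPcre tg/+ and Etv5fl/fl alleles with Etv4-/-. Both groups therefore carried the transgene, which drives Cre recombinase in Six2-expressing nephron progenitors, together with floxed Etv5, and by the labels they differed at Etv4, a gene for an ETS-family transcription factor. The Etv4 null allele is not limited to nephron progenitors, and the libraries are of whole kidneys.

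Hox proteins are homeodomain transcription factors that give cells a position along the body axis. Genes of the same number in different clusters, called a paralogous group, descend from one ancestral gene and often act in place of one another, and genes at the 5′ end of a cluster (high numbers) are active nearer the tail. In the kidney, the group 11 genes Hoxa11, Hoxc11 and Hoxd11 are required in the metanephric mesenchyme, where they act with Eya1 and Pax2 on Six2 and Gdnf, group 10 genes are required in the stroma, and Hoxb7 is known for its expression in the ureteric bud.

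Levels below are normalized counts, which are the estimated counts recovered from the deposited values divided by a size factor for each library. Total estimated counts ranged from 15515139 in control 4 to 39548327 in control 2. Control 4 stood apart, with 18.4% of its counts on Lars2 against at most 0.476% in the other libraries. The Hox genes took 0.0875% of all counts in control 4 and 0.0941 to 0.117% in the others. Controls 1 to 4 had 2816, 2803, 2816 and 2311 normalized counts of Etv4, and mutants 1 to 4 had 294, 281, 219 and 164. Etv4 fell by 3.51 on the log2 scale (SE 0.18, limma adjusted p = 2.6e-05). Floxed Etv5 had 3438, 4085, 3929 and 3006 in the controls and 2657, 2377, 1957 and 1487 in the mutants, with no overlap, and did not pass the test (log2 fold change −0.79, SE 0.17, adjusted p = 0.106 by limma). Ddx3y, a Y-linked gene, ran from 1553 to 1629 in the controls and was 0 in every mutant, so sex and genotype cannot be told apart in any comparison below. The labels call the controls littermates but do not say which embryos share a litter, so the p-values measure the spread between these kidney pairs.

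The fetal kidney transcribed all 4 clusters, and the 3 most abundant genes per kb were of groups 10 and 11. Genes were ranked by normalized count per kb of their longest coding transcript in GENCODE M21, averaged over the 8 libraries, since counts of different genes can be compared only per length. Hoxd11 ranked first, with 4196 ± 452 per kb in the controls (SD, n = 4). Hoxc10 was second at 2259 ± 472 per kb, followed by Hoxa10 at 1321 ± 75.6 per kb. Hoxc10 ranged from 1769 to 2788 per kb in the controls, which reached none of the values of its neighbours Hoxd11 and Hoxa10. The next places were held by Hoxd9 (1060.4), Hoxb7 (1069.8), Hoxb9 (1078), Hoxa11 (962) and Hoxb8 (906 per kb in the controls), and the control ranges of these 5 overlapped. With the shortest coding transcript as length, Hoxd11 stayed first, Hoxd8 moved from place 9 to place 2, and Hoxc10 from place 2 to place 4. Groups 9, 10 and 11 together made up 65.0% ± 2.76 of the summed Hox counts per kb in the controls and 64.1% ± 1.84 in the mutants (SD, n = 4 each).

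At the ends of the clusters the levels were low. Hoxa13, Hoxb1, Hoxc12 and Hoxc13 did not reach a normalized count of 10 in at least 4 libraries and were not tested. The estimated counts of Hoxa13 were 0 in 6 of 8 libraries, 2 in control 3 and 6 in mutant 4. Hoxc12 had 3 counts in control 2 and 0 elsewhere, and Hoxc13 had 2 in control 3, 3 in mutant 3 and 0 elsewhere. Hoxb1, a gene of the hindbrain, had 2 to 12 counts in the controls and 1 to 18 in the mutants. Hoxd13, of the same group as Hoxa13 and Hoxc13 and known for its role in digits and the lower urogenital tract, passed the filter with 11.2 to 41.5 normalized counts in the controls and 13.2 to 18.8 in the mutants.

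**Figure D1:**
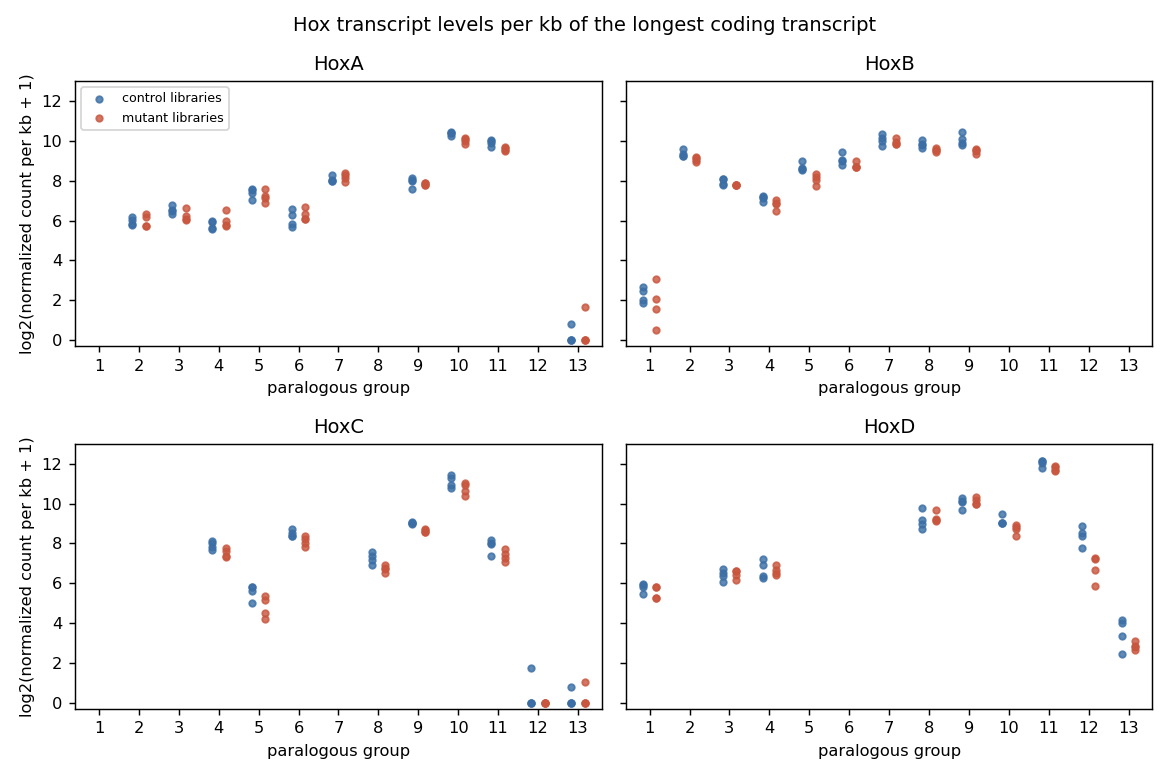
Hox transcript levels in each library, as log2 of the normalized count per kb plus 1, against the paralogous group (1 to 13), with 1 panel for each cluster, controls in blue and mutants in red. Hoxd11 is the highest point in both groups (4196 per kb in controls, 3463 in mutants), and groups 12 and 13 outside HoxD lie near 0.

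The levels plot has its highest points at groups 10 and 11 in both genotypes. Compared between genotypes, the 38 Hox genes together had 36873, 36071, 37236 and 37589.9 normalized counts in the controls (replicates 1 to 4) and 31202, 30866, 29028 and 29411 in the mutants. Every mutant lay below every control, and the mutant mean (30127 ± 1068) was 18.4% below the control mean (36942 ± 651, SD, n = 4 each). In a bulk sample, fewer cells that express Hox genes and less Hox RNA per cell cannot be told apart. HoxC had the largest difference in summed counts, 24.0% lower in the mutants, although mutant 1 (6499) was above control 4 (6432). HoxB was 21.4% lower, HoxA 16.0% and HoxD 13.5%, and for these 3 clusters the groups did not overlap. The scale matters here: as a share of all estimated counts, control 4 had the lowest Hox value of all 8 libraries. That share is taken over counts that include Lars2, which held 18.4% of the counts of control 4.

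**Figure D2:**
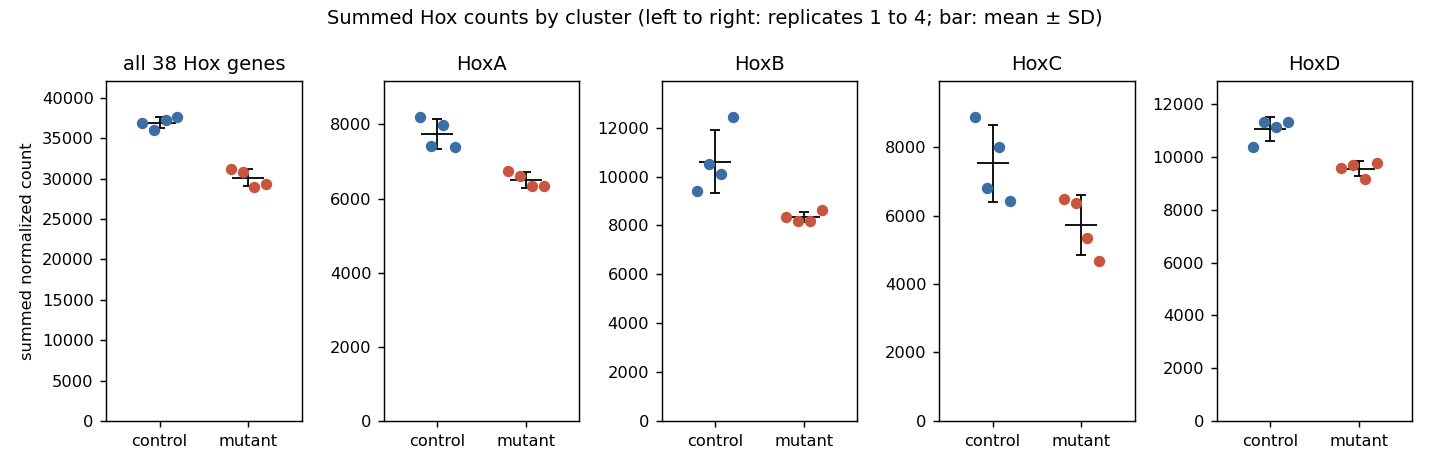
Summed normalized counts of all 38 Hox genes and of each cluster, with 1 point for each library and a bar for the mean and SD of 4 libraries. The mutant points lie below all control points in every panel except HoxC, where mutant 1 reaches control 4.

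No Hox gene passed the test across all genes. Of 34 Hox genes tested with limma, 0 had an adjusted p below 0.05, against 0.301% of all 14974 genes (0.22% lower and 0.0801% higher in mutants). At an unadjusted p below 0.05, 15 of the 34 were lower in the mutants and 0 were higher, against 5.72% and 6.33% of all genes. The log2 fold change was below 0 for 26 of the 34, against 48.3% of all genes, and its median was −0.29, against 0.0087 over all genes. That median was −0.16 with total-count scaling (all genes 0.14) and above 0, at 0.18, in the deposited values without depth correction (all genes 0.48), and relative to the median of all genes it was −0.30 under each of these scalings. In 9 of the 34 the highest mutant was below the lowest control, against 4.43% of all genes, and in none was the lowest mutant above the highest control, against 4.17%. The number with no overlap was 13 without control 1 and 13 without control 4, where 5.57% and 8.75% of all genes had none. Leaving out a library can only keep or raise this number. By other tools, limma voom called 1 Hox gene lower (Hoxd12), among 49 genes called lower in all. Limma with array quality weights called 7 (Hoxa10, Hoxa11, Hoxb5, Hoxb9, Hoxc9, Hoxd11 and Hoxd12), among 415 genes called lower. The main test called 33 genes lower.

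The clusters differed in how many members lay below 0, though no difference between clusters was tested. All 8 tested HoxB genes and all 7 tested HoxC genes had negative log2 fold changes, with medians of −0.29 and −0.40. Of 10 tested HoxA genes 5 were negative (median −0.037), and of 9 HoxD genes 6 were (median −0.26). By group, 4 of 7 tested genes of groups 1 to 3 were negative (median −0.16), 11 of 15 of groups 4 to 8 (median −0.27), 6 of 7 of groups 9 and 10 (median −0.37), and all 3 of group 11 (median −0.32). The remaining 2 tested genes, Hoxd12 and Hoxd13, were both negative.

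**Figure D3:**
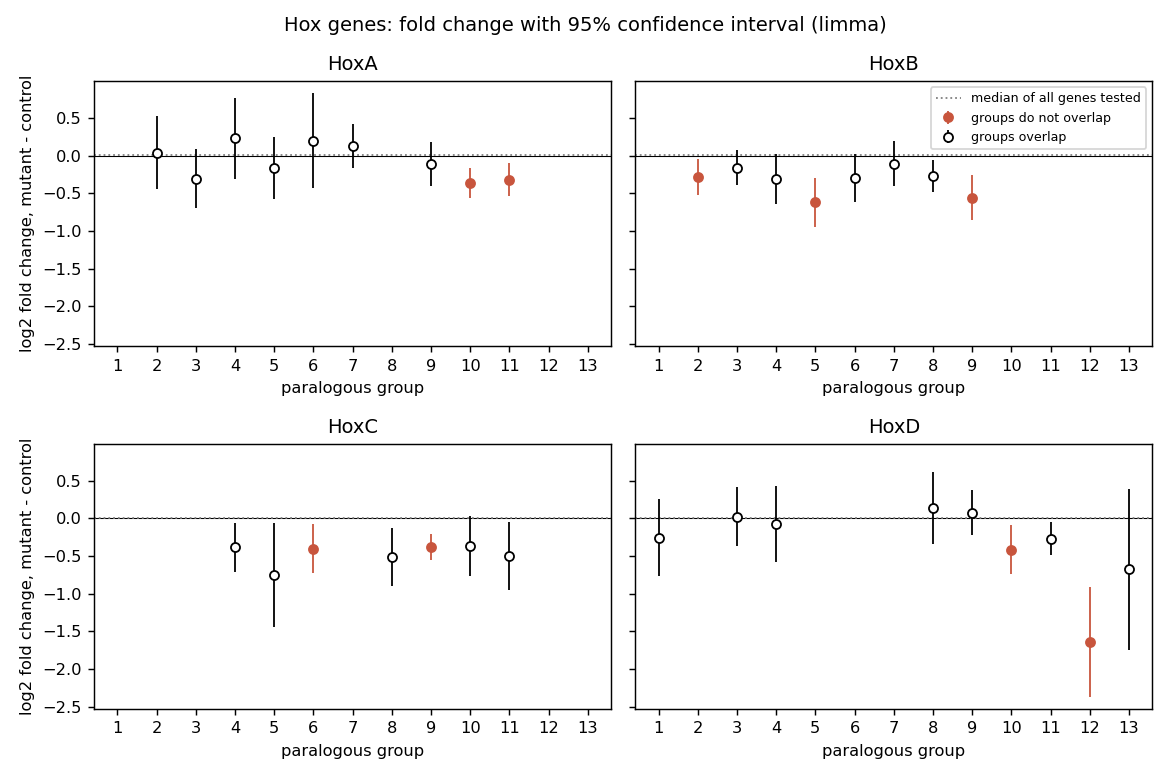
Log2 fold change (mutant minus control) of tested Hox genes with its 95% confidence interval from limma, against paralogous group, with 1 panel for each cluster; red points are the 9 genes whose groups do not overlap and the dotted line is the median of all genes tested (0.0087). The points of HoxB and HoxC lie between −0.11 and −0.76, and Hoxd12 is the lowest point at −1.64.

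The largest difference in the HoxD cluster was in Hoxd12, a 5′ gene known for its expression in the limb bud and the urogenital system (ENSMUSG00000001823, chromosome 2, 74675013 to 74677705, plus strand, GRCm38). Controls 1 to 4 had 1183, 919, 839 and 556 normalized counts, and mutants 1 to 4 had 378, 382, 253 and 145. Control 4 was the lowest control and mutant 4 the lowest mutant, and no mutant reached any control. The mutant mean was 33.1% of the control mean (874 ± 258 in controls, 289 ± 113 in mutants, SD, n = 4 each), a log2 fold change of −1.64 (95% confidence interval −2.37 to −0.92). It missed the threshold across all genes (adjusted p = 0.0823 by limma, 4 mutants of 4 below all controls). Without control 4 it passed, with an adjusted p of 0.0306 by limma, and without each of the other 7 libraries in turn it did not (adjusted p of 0.116 to 0.274 by limma). With the number in the library names as a block it passed (adjusted p = 0.0139 by limma).

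The other 5′ HoxD genes had smaller differences. Hoxd11, a group 11 gene and the most abundant Hox transcript per kb, had 4908, 4721, 5077 and 3941 in the controls and 4001, 4212, 3572 and 3602 in the mutants. Only control 4 fell within the range of the mutants, and the log2 fold change was −0.27 (SE 0.10, adjusted p = 0.299 by limma). Hoxd10, which acts with its paralogs in motor neurons and kidney stroma, had 943, 942, 951 and 1270.3 in the controls and 887, 819, 772 and 603 in the mutants. Controls 1 to 3 were nearly equal, control 4 was well above them, and all mutants were below all controls (log2 fold change −0.42, SE 0.15, adjusted p = 0.288 by limma). GENCODE M21 places 23.9% of the coding exon bases of Hoxd11 and 5.73% of those of Hoxd10 in a same-strand gene model, Gm28309, so their counts may be shared with it.

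The groups overlapped for the other HoxD genes. Hoxd9, a gene of trunk and limb patterning, had 1736, 2399.7, 2298 and 2626 in the controls and 2178, 2169.8, 2431 and 2696 in the mutants, overlapping throughout. Its log2 fold change was 0.08 (95% confidence interval −0.22 to 0.37, adjusted p = 0.862 by limma). Hoxd8, its neighbour, had 1102, 1523, 1334 and 2333 in the controls and 1518, 1487, 1583 and 2120.2 in the mutants. Replicate 4 was the highest of each group for Hoxd8 and Hoxd9, where it had been the lowest for Hoxd12, and the log2 fold change of Hoxd8 was 0.13 (95% confidence interval −0.34 to 0.61, adjusted p = 0.846 by limma). Hoxd1 (−0.26), Hoxd3 (0.02), Hoxd4 (−0.07) and Hoxd13 (log2 fold change −0.68) overlapped between groups, with adjusted p of 0.617 to 0.974 by limma. Of the coding exon bases of Hoxd3, 80.5% lie in same-strand exons of Hoxd4 or Gm28230. Of those of Hoxd4, 45.1% lie in same-strand exons of Gm28230. The split of reads among these gene models is therefore uncertain.

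Set against its neighbours, Hoxd12 was a smaller part of HoxD in the mutants. Its count was 24.1, 19.5, 16.5 and 14.1% of the Hoxd11 count in the controls and 9.44, 9.07, 7.07 and 4.03% in the mutants. Against Hoxd9 it was 68.1, 38.3, 36.5 and 21.2% in the controls and 17.3, 17.6, 10.4 and 5.38% in the mutants. Neither of these ratios overlapped between groups, and the mean ratio to Hoxd11 was 2.51 times as high in controls as in mutants. The ratios to Hoxd1, Hoxd3 and Hoxd4 did not overlap either. Against Hoxd10 the groups overlapped, since control 4 (43.8%) was below mutant 2 (46.6%). Against Hoxd8 control 4 (23.8%) was below mutants 1 and 2 (24.9 and 25.7%), and against the adjacent Hoxd13 control 4 was below mutants 1 to 3. These ratios are not corrected for length and were chosen after the values were seen, so no test is given.

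**Figure D4:**
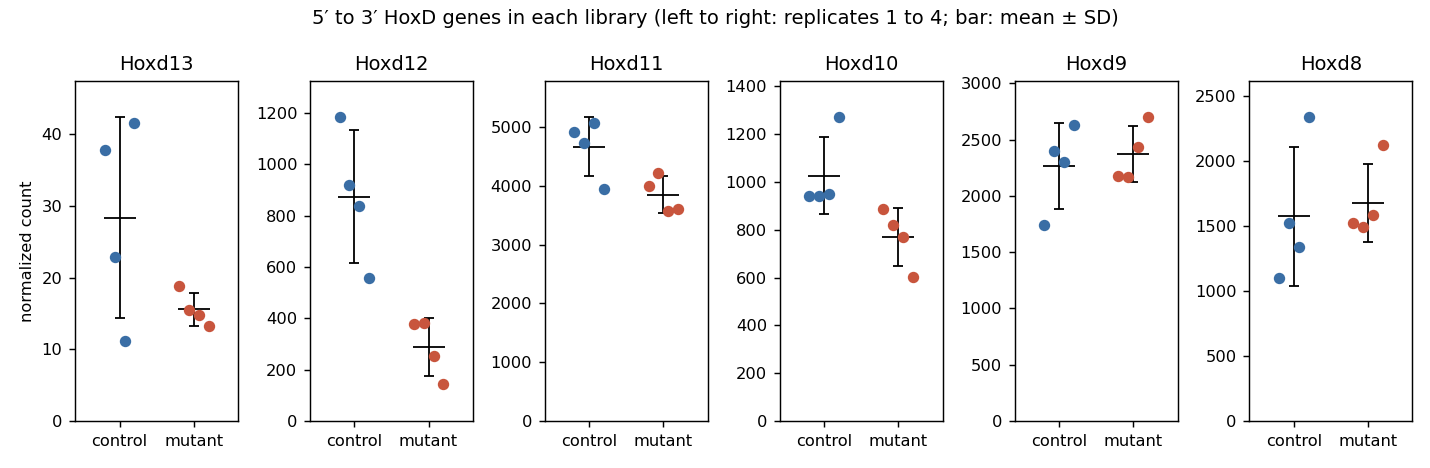
Normalized counts of 6 HoxD genes in each library, in 5′ to 3′ order along the cluster, with points for replicates 1 to 4 from left to right and a bar for the mean and SD. Hoxd12 and Hoxd10 do not overlap between control (blue) and mutant (red), and Hoxd9 and Hoxd8 overlap throughout.

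The 250 bases before the RefSeq start of 4 neighbouring HoxD genes are shown because these genes lie side by side and had different fold changes (RefSeq, GRCm38.p6, plus strand, 5′ to 3′). The windows are chr2:74674763-74675012 for Hoxd12, chr2:74682073-74682322 for a second start of Hoxd11, chr2:74691641-74691890 for Hoxd10 and chr2:74697513-74697762 for Hoxd9. Capitals mark TGATNNAT, a motif of Hox proteins bound with a Pbx cofactor, read on either strand.
Hoxd12: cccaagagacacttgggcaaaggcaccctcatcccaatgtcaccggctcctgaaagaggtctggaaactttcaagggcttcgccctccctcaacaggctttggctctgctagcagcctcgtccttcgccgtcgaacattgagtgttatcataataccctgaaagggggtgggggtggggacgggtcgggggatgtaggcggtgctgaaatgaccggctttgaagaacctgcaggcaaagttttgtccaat
Hoxd11: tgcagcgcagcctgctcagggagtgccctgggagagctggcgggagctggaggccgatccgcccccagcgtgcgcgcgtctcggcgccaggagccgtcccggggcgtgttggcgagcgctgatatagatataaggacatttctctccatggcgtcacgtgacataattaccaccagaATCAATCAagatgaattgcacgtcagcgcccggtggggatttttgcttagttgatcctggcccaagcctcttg
Hoxd10: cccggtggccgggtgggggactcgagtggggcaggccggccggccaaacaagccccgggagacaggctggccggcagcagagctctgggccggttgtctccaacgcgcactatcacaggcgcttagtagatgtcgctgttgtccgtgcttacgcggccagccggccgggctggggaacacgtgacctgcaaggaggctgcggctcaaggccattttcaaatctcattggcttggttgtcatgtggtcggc
Hoxd9: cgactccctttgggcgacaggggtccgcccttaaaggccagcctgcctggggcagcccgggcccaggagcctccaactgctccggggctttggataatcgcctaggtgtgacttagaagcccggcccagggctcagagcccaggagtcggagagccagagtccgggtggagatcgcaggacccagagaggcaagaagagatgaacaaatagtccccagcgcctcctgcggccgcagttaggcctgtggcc
In windows of 250 bases before and 50 after the start, RefSeq promoters were found for 22 of the 38 Hox genes, 24 windows in all. TGATNNAT occurred in 4 of these 24 (of Hoxa2, Hoxb1, Hoxb8 and the second start of Hoxd11) and in 8.85% of all 32851 promoter windows. CCGGAAG, an ETS-type motif searched on both strands, occurred in 0 of 24 and in 8.86% of all windows. The Hox windows had a median GC content of 57.7%, against 52.7% over all windows. These are matches of letters and say nothing of binding.

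In HoxC, 6 of 7 tested genes were lower at an unadjusted p below 0.05, against 5.72% of all genes, and 2 did not overlap between groups, against 4.43% of all genes. Hoxc9, which sets thoracic identity in motor neurons (ENSMUSG00000036139, chromosome 15, 102976439 to 102985099, plus strand), had 1229, 1207, 1215 and 1256 in the controls and 994, 906, 916 and 951 in the mutants. The controls spanned a narrow range, and all mutants were below it. Its log2 fold change was −0.38 (SE 0.08, 1227 ± 21.7 against 942 ± 39.9, SD, n = 4 each), with an adjusted p of 0.0823 by limma, equal to that of Hoxd12.

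Hoxc10, the most abundant HoxC transcript per kb and a stromal group 10 gene, had 5323, 3758, 4790.3 and 3376 in the controls and 3955, 3776, 3066 and 2532 in the mutants. Mutants 1 and 2 lay among the controls and mutants 3 and 4 below them (log2 fold change −0.37, SE 0.18, adjusted p = 0.448 by limma). Hoxc11, the group 11 member of the cluster, had 588, 527, 499 and 327 in the controls and 352, 422, 311 and 273 in the mutants. Control 4 was below mutants 1 and 2, and the other controls were above every mutant (log2 fold change −0.50, SE 0.20, adjusted p = 0.361 by limma). Hoxc8, a gene of brachial motor neurons, had 349, 224, 262 and 307 in the controls and 199.8, 225, 198 and 171 in the mutants. Control 2 and mutant 2 were nearly equal, and no other pair of values crossed (log2 fold change −0.51, SE 0.17, adjusted p = 0.270 by limma).

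The 3′ HoxC genes, active in the neck and forelimb region, also had log2 fold changes below 0. Hoxc6 had 671, 521, 520.0 and 573 in the controls and 464, 519.9, 401 and 352 in the mutants. The groups did not overlap, but control 3 and mutant 2 were almost equal (log2 fold change −0.40, SE 0.15, adjusted p = 0.309 by limma). Hoxc4 had 548, 477, 579.6 and 432 in the controls and 415, 455, 353 and 336 in the mutants. Control 4 was the lowest control and lay below mutant 2 (log2 fold change −0.39, SE 0.14, adjusted p = 0.319 by limma). Hoxc5 had 162, 92.4, 140.0 and 161 in the controls and 118, 64.5, 102 and 51.9 in the mutants. Control 2 was below mutants 1 and 3 (log2 fold change −0.76, SE 0.31, adjusted p = 0.361 by limma). Hoxc5 and Hoxc10 overlap on the same strand over 8.70% of the coding exon bases of Hoxc10, so a few reads may be divided between them.

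In HoxB, 4 of 8 tested genes were lower at an unadjusted p below 0.05, against 5.72% of all genes, and 3 of these did not overlap between groups, against 4.43% of all genes. Hoxb5, known for its role in enteric neurons (ENSMUSG00000038700, chromosome 11, 96303336 to 96306121, plus strand), had 947, 707, 764 and 722 in the controls and 604, 540.3, 402 and 498 in the mutants. All mutants were below all controls, with control 1 the highest (log2 fold change −0.62, SE 0.15, adjusted p = 0.121 by limma). Hoxb9, a gene of the thoracic skeleton (ENSMUSG00000020875, chromosome 11, 96271457 to 96276595, plus strand), had 2276, 2771, 2459 and 3595 in the controls and 1854, 1677, 1945 and 1966 in the mutants. The mutants lay close together below a wider range of controls (log2 fold change −0.56, SE 0.14, adjusted p = 0.126 by limma).

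Hoxb2, a hindbrain gene, had 965, 981, 1067 and 1239.9 in the controls and 789.5, 849, 908 and 946 in the mutants. The groups did not overlap, with mutant 4 just under control 1 (log2 fold change −0.28, SE 0.11, adjusted p = 0.331 by limma). Hoxb8, which holds myeloid progenitors in an undifferentiated state when overexpressed, had 2073, 2342, 2390.2 and 2745 in the controls and 1988, 2107, 1956 and 1841 in the mutants. Mutant 2 was above control 1, and the remaining mutants were below every control (log2 fold change −0.27, SE 0.10, adjusted p = 0.291 by limma). Hoxb7, the ureteric bud gene, had 1102, 1432, 1306 and 1685 in the controls and 1273, 1189, 1169 and 1456 in the mutants. The groups overlapped, and the log2 fold change was −0.11 (SE 0.13, adjusted p = 0.796 by limma). Hoxb3 (−0.16), Hoxb4 (−0.31) and Hoxb6 (log2 fold change −0.30) overlapped between groups. Annotated antisense genes overlap 58.5% of the coding exon bases of Hoxb2 and 63.9% of those of Hoxb3, and the labels and files do not say whether counting used strand.

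HoxB lies on the same chromosome as Etv4, which begins 5.40 Mb beyond Hoxb1. The values of other genes around Etv4 were therefore set beside it. Tested genes within 10 Mb of Etv4, leaving out Etv4 and HoxB, numbered 275. Of these, 10.5% were lower at an unadjusted p below 0.05, against 5.72% of all genes. By adjusted p, 2 of the 275 passed the limma test in either direction, against 0.301% of all genes. Their median log2 fold change was 0.0026. For the 8 HoxB genes the share at an unadjusted p below 0.05 was 50%, the median was −0.29 and 0 passed. Among the 275 genes are Rara and Meox1, which are named below. Linked differences between the chromosomes that carry the Etv4 alleles were not tested.

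In HoxA, the 5′ members Hoxa10 and Hoxa11 were below control in every mutant, and the 8 other tested genes had adjusted p of 0.524 to 0.967 by limma. Hoxa10 (ENSMUSG00000000938, chromosome 6, 52231197 to 52240854, minus strand), a gene of the stroma and of the uterus, had 3578, 3119, 3401 and 3454 in the controls and 2858, 2784, 2318 and 2591 in the mutants. All mutants were below all controls, with mutant 1 nearest to control 2 (log2 fold change −0.36, SE 0.09, adjusted p = 0.121 by limma). Hoxa11, the group 11 gene whose loss together with Hoxd11 leaves very small kidneys, had 2429.9, 2164, 2332 and 1876 in the controls and 1868, 1843, 1702 and 1621 in the mutants. Control 4 lay just above mutant 1 (log2 fold change −0.32, SE 0.10, adjusted p = 0.224 by limma). An antisense gene, Hoxa11os, overlaps 35.0% of the coding exon bases of Hoxa11.

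Hoxa7, which follows Hoxa10 and Hoxa11 in level per kb, had 501, 517, 507 and 620.4 in the controls and 491, 562, 677 and 627 in the mutants. Control 4 was the highest control, and the groups overlapped (log2 fold change 0.13, SE 0.13, adjusted p = 0.730 by limma). Hoxa9 (−0.11), Hoxa5 (−0.16) and Hoxa3 (log2 fold change −0.31) were below 0. Hoxa2 (0.04), Hoxa4 (0.23) and Hoxa6 (log2 fold change 0.20) were above 0.

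The shares of the members within paralogous groups 8 to 11 are given as a description, and no difference in shares was tested. In group 11, Hoxd11 made up 77.8% of the counts per kb in the controls and 78.7% in the mutants, Hoxa11 17.8 and 17.5%, and Hoxc11 4.40 and 3.80%. In group 10, Hoxc10 made up 54.1 and 54.3%, Hoxa10 32.1 and 32.5%, and Hoxd10 13.9 and 13.3%. In group 8, Hoxb8 made up 55.2 and 50.3%, Hoxd8 35.4 and 42.5%, and Hoxc8 9.46 and 7.15%. In group 9, Hoxb9 made up 34.2 to 41.8% in the controls and 28.5 to 30.3% in the mutants. Hoxd9 made up 32.8 to 38.5% of group 9 in the controls and 42.5 to 47.7% in the mutants. Neither of these shares in group 9 overlapped between groups, and the larger part of group 9 was Hoxb9 in 2 controls and Hoxd9 in all 4 mutants. Summed counts of group 11 were 19.1% lower in mutants than in controls, those of group 10 were 22.8% lower, those of group 9 16.4% and those of group 5 29.2%. Group 7, which holds Hoxa7 and Hoxb7, was 2.96% lower.

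Markers of kidney cell types differed between the same libraries. The 10 nephron progenitor markers summed to 36276, 24490, 32132 and 20527 normalized counts in the controls and to 12368, 11561, 7370 and 6329 in the mutants. Of these 10 markers, 3 fell in the mutants by the limma test, against 0.22% of all genes. They were Capn6, Osr1 and Crym, with log2 fold changes of −0.95, −1.69 and −2.87 (limma adjusted p = 0.00560, 0.0152 and 0.0185). Of the 10, 9 were below 0, against 48.3% of all genes. Six2, the defining progenitor gene, had 13695, 8458, 11174 and 6108 in the controls and 3297, 2799, 1181 and 608 in the mutants (log2 fold change −2.55, SE 0.49, adjusted p = 0.0774 by limma). Six2, the progenitor sum and Hoxd12 shared features of their order: control 1 was the highest control, control 4 the lowest, and mutants 3 and 4 were below mutants 1 and 2. Hoxa11, Hoxc10, Hoxc11 and the stromal marker Foxd1 had these features too, so they are not particular to Hoxd12 or to progenitor genes. Controls 2 and 3 were in opposite orders, with 24490 and 32132 for the progenitor sum and 919 and 839 for Hoxd12. Hoxd9 had the opposite extremes among the controls, lowest in control 1 and highest in control 4. The part of cell composition in the Hox values was not tested.

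**Figure D5:**
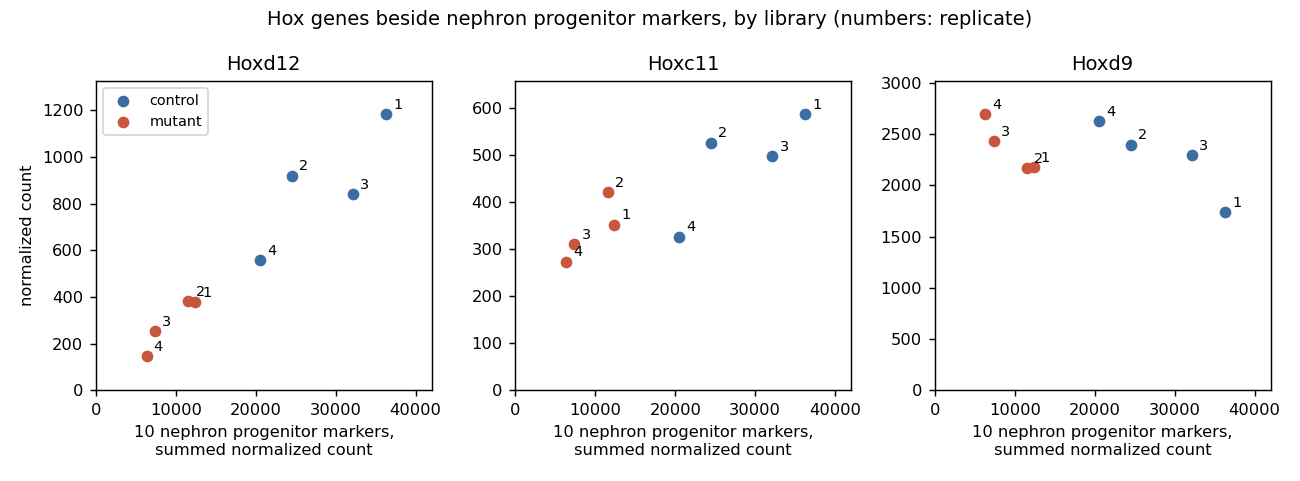
Normalized counts of Hoxd12, Hoxc11 and Hoxd9 against the summed normalized count of 10 nephron progenitor markers, with 1 point for each library, controls in blue, mutants in red and the replicate number beside each point. Hoxd12 is lowest in control 4 and mutant 4, which have the lowest progenitor sums of their groups. Hoxd9 is lowest in control 1, which has the highest sum.

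The progenitor plot is a description of 8 libraries in 2 genotypes. Markers of some other cell types did not overlap between groups either. Summed early nephron markers were 14059 to 20466 in the controls and 22965 to 25841 in the mutants, podocyte markers 8193 to 9498 and 9997 to 17547, endothelial markers 14137 to 18544 and 19449 to 22484, and macrophage markers 1859.9 to 2865 and 3220 to 3521 (9, 6, 7 and 6 of the tested markers above 0, of 10, 6, 7 and 7, none past the threshold). Stromal markers (40091 to 52014 against 40649 to 43857), ureteric markers (22558 to 32268 against 26314 to 28143) and proximal tubule markers (249.6 to 3139 against 645 to 9609) overlapped, with 7 of 10, 6 of 10 and 3 of 4 tested markers above 0 and none past the threshold. Markers of neighbouring tissues were low: summed adrenal cortex markers were 178 to 360 over all libraries, urothelial markers 94.9 to 490, and sympathetic and glial markers 142 to 285. Skeletal muscle markers were 96.7 to 296 except in mutant 2, at 1450.3. The gonad list was 675 to 1796, and Sox9, also a kidney gene, was its 1 tested member. Erythroid markers summed to 176754 to 282687 in the controls and 206108 to 367085 in the mutants.

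Genes that work with or upstream of Hox genes were counted in the same fit. Of 9 TALE homeodomain cofactors, which bind DNA together with Hox proteins, 0 passed the limma test (median log2 fold change −0.063). At an unadjusted p below 0.05 there were 0, against 5.72% of all genes lower and 6.33% higher. Meis2 had the smallest p (log2 fold change −0.31, adjusted p = 0.454 by limma). Of 23 Polycomb and Trithorax genes, which keep Hox clusters silent or active, 1 rose and 0 fell, against 0.0801% and 0.22% of all genes. That gene was Kdm6a, an X-linked H3K27 demethylase, with 634 to 745 normalized counts in the controls and 1069 to 1317 in the mutants (log2 fold change 0.84, SE 0.10, adjusted p = 0.0146 by limma). Y-linked Ddx3y was 0 in every mutant, so for this X-linked gene sex and genotype cannot be told apart. Of 9 tested upstream genes, of retinoic acid and Gdf11 signalling, 0 passed by limma. At an unadjusted p below 0.05, 3 were lower, against 5.72% of all genes. Rara, a retinoic acid receptor, and Aldh1a2, which makes retinoic acid, had the smallest p, with log2 fold changes of −0.48 and −0.46 (adjusted p = 0.10 and 0.233 by limma). Rara lies within 10 Mb of Etv4 on chromosome 11.

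Among 9 partners and targets of group 11 Hox proteins in the kidney, 1 fell, against 0.22% of all genes. It was Osr1 (log2 fold change −1.69, SE 0.21, limma adjusted p = 0.0152). Of the 9, 8 were below 0, against 48.3% of all genes. Six2, Osr1, Eya1, Gdnf and Itga8 are also in the nephron progenitor list. Eya1 had −1.23 and Gdnf −0.93, with adjusted p of 0.270 and 0.240 by limma. Of 16 other homeobox genes of the fetal kidney, 0 passed by limma. At an unadjusted p below 0.05, 3 were lower and 4 higher, against 5.72% and 6.33% of all genes. The 2 with the smallest p were Pax8 (0.64, adjusted p = 0.0688 by limma) and Meox1 (−1.31, adjusted p = 0.0748 by limma). Meox1 starts at 101877510 on chromosome 11, near Etv4 at 101769742, and linked differences were not tested.

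Genes that flank the clusters gave a local comparison. Of 10 tested, 0 passed by limma, and the median log2 fold change was −0.057. At an unadjusted p below 0.05, 2 were lower, against 5.72% of all genes. Those 2 were Cbx5 near HoxC (−0.23, adjusted p = 0.273 by limma) and Lnpk, on the 5′ side of HoxD beyond Hoxd13 (−0.33, adjusted p = 0.345 by limma). Mtx2, beyond Hoxd1 on the 3′ side, had 0.05 and is named after its value was seen. Antisense, long noncoding and microRNA genes of the clusters were not analysed here.

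The authors' deposited table of fold changes lists 644 genes, with log2 fold changes of at least 0.5 in size and adjusted p up to 0.0498. The expression table has 21291 gene rows. Of the 644 genes, 261 were lower and 383 higher in the mutants. In this list 3 are Hox genes, which make up 1.15% of the lower genes. No gene with a smaller fold change is listed. For a Hox gene whose change was below 0.5 in size in that comparison, absence therefore says nothing of its p. In the authors' deposited table Hoxd12 had a log2 fold change of −1.76 (SE 0.27) and an adjusted p of 3.6e-08. The authors' deposited table gave −0.65 (SE 0.17, adjusted p 0.00464) for Hoxb5 and −0.66 (SE 0.18, adjusted p 0.00691) for Hoxc11. All 3 were lower in the mutants in both sources, and none of the 3 passed the limma test with all 8 libraries. Without control 4, limma gave −1.84, −0.66 and −0.67 for Hoxd12, Hoxb5 and Hoxc11 (adjusted p = 0.0306, 0.0821 and 0.0815). The headers of the authors' comparison do not name its libraries. Both sources may therefore differ in samples as well as in test.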

How the data were processed

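Both kidneys of each embryo were frozen together, and their RNA was polyA-enriched and read as pairs, per the labels' protocols. The submitters' processing notes name fastp 0.23.2, kallisto 0.46.0, DESeq2 1.40.2 and genome build mm10, without settings. The deposited expression table holds log2 values. From the values themselves, each is log2 of an estimated count plus 1 without depth correction (80.9% of the 304 Hox values gave whole counts within 1e-06). The authors' own comparison lists, per the file headers, the average normalized count of a gene (a signal), its log2 fold change, the statistic of the test (a score) and the p-values; the rule behind its gene selection was not found in the labels.

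Recovered counts were scaled by size factors, computed as medians of ratios over 15045 genes (0.361 to 1.27). A gene was tested if its normalized count reached 10 in 4 or more libraries. The test was limma 3.58.1 in R 4.3.3 on log2(normalized count + 1), with lmFit and a trended eBayes, 2-sided, with no covariate. P-values were adjusted by Benjamini-Hochberg across the 14974 genes tested, and 0.05 was the threshold. The added 1 understates the change of low genes. A normalized count of 3 counts was 8.30 in control 4 and 2.37 to 2.80 elsewhere. The script was tested on simulated data.

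The counts cover all Hox genes, and 2 genes that would be named are not reported here. Values per library are given for those with an unadjusted p below 0.05, the 3 of each cluster with the highest count per kb, Etv4 and Etv5. Each gene list is represented by its members that passed, or, if none did, by the 2 of smallest p. Members and lists were chosen with earlier results of these data known. Gene models came from GENCODE M21 (GRCm38, the assembly of mm10) and promoters from RefSeq (GRCm38.p6). Protein sequences were not analysed here. The alternatives tried covered scaling, pseudocount, filter, trend, weights, blocks, threshold and left-out libraries. Plots were made in matplotlib 3.10.9 under Python 3.11.15.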

Additional observations from a re-analysis of the deposited data

Results flagged for a closer look

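Each Hox gene was checked in each group of 4 libraries for a sample far from the other 3, judged by its gap to the nearest sample as a share of the range. In 68 such groups, 4 had one, and chance gives about 1 in 20. Hoxd10 was 1270.3 in control 4, against 942 to 951 in the other controls. Hoxa7 was 620.4 in control 4, against 501 to 517. Hoxb6 was 988 in mutant 4, against 799 to 810.4 in the other mutants, and Hoxd8 was 2120.2 in mutant 4, against 1487 to 1583. All 4 values are the highest of their group and belong to the libraries whose names begin with c816 or m816. The labels do not say what that name marks, and its part in these values was not tested.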

How the results depend on the processing

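Over 24 alternatives (1 of them, total-count scaling without Lars2, chosen after seeing the data), 15 Hox genes were followed, which gave 360 values: 336 kept their direction and side of the threshold, 15 passed where they had not, and 9 changed sign. All 9 changes of sign came from the deposited values without depth correction: Hoxa10 0.11, Hoxa11 0.15, Hoxb2 0.19, Hoxb8 0.20, Hoxc4 0.082, Hoxc6 0.067, Hoxc9 0.088, Hoxd10 0.053 and Hoxd11 0.20. With that table the Hox median was 0.18, 1 Hox gene was lower at an unadjusted p below 0.05, and 62 genes were higher and 18 lower among all genes, whose median was itself 0.48. Total-count scaling gave a Hox median of −0.16, 3 Hox genes lower at an unadjusted p below 0.05, and 3 higher and 8 lower genes; leaving Lars2 out of the totals gave a Hox median of −0.23. Limma without trend called 7 genes higher and 21 lower, and voom 20 higher with 1 Hox gene lower (Hoxd12, adjusted p 0.0449). Array quality weights called 333 higher and 415 lower with 7 Hox genes lower. A threshold of 0.1 gave 44 higher and 78 lower with 2 Hox genes lower (Hoxc9 and Hoxd12). Without both libraries named c816 and m816 there were 57 higher and 122 lower with 1 Hox gene lower (Hoxd12) and a Hox median of −0.23. The 4 libraries named c755 and m755 alone gave 3 higher and 15 lower, 1 Hox gene lower (Hoxd12), 9 lower at an unadjusted p below 0.05, and a Hox median of −0.21. The cause of these differences was not tested.

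Same-numbered libraries of the groups correlated in their deviations at 0.27, 0.098, −0.13 and 0.35, so the numbers were not taken to pair them, and mutants 2 and 3 did not correlate best with their own number. With a replicate block, 45 genes were higher and 88 lower, with 1 Hox gene lower (Hoxd12, adjusted p 0.00415). The number in the library names as a block also gave 1 Hox gene lower (Hoxd12).

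Leaving out 1 library at a time gave 0 to 53 higher and 2 to 108 lower genes. Without control 4 these were 53 and 108, without control 3 they were 0 and 2, without control 1 they were 3 and 7, and without mutants 1, 2, 3 and 4 they were 0 and 13, 1 and 18, 0 and 9, and 2 and 20. Among the Hox genes, 0 to 1 were lower (Hoxd12 without control 4), 0 to 0 higher, and 11 to 15 lower at an unadjusted p below 0.05. The Hox median ran from −0.32 to −0.24. In 10 to 13 Hox genes every mutant was below every control, against 5.43 to 8.75% of all genes. With all libraries these were 9 and 4.43%. The size factors were kept, so leaving out a library can only keep or raise such counts. The fold change of Hoxd12 ran from −1.84 to −1.34. Depth limits the lowest genes, Hoxa13, Hoxb1, Hoxc12 and Hoxc13, most of all in control 4.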
